A study of Rattus norvegicus with 12 samples.

Results

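The transcription factors that specify and maintain the gonadotrope, the pituitary cell that secretes FSH (follicle-stimulating hormone) and LH (luteinizing hormone), were examined in cultures treated with gonadotropin-releasing hormone (GnRH). The genes were Nr5a1, Nr0b1, Foxl2, Gata2, Isl1, Pitx1 and Lhx3, and every probe set annotated with 1 of these symbols alone was taken. The array carried 9 such probe sets for 6 of the 7 genes, out of 31042 probe sets that are not array controls and 14217 genes with a symbol of their own. Lhx3 had none and was not analysed here. Of the 9 probe sets, 5 passed a filter on low signal (Nr5a1 1393286_at, Nr0b1 1369478_at, Foxl2 1382757_at, Gata2 1368297_at and Pitx1 1369288_at) and were tested. The other 4 (Nr5a1 1369859_at, Gata2 1391882_at and both Isl1 probe sets) are given as values only.

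Cells came from the anterior pituitaries of adult female Sprague-Dawley rats ovariectomized 2 weeks earlier, 13 to 15 glands per experiment, and large cells were collected by sedimentation. The GnRH group received 10 nM GnRH for 40 min on day 3 of culture, the vehicle group received vehicle medium, and both were kept in 0.2 nM estradiol and steroid-stripped serum. Each group had 6 arrays, 2 from each of 3 cell preparations called enrichment sets I, II and III. LH-positive cells made up 40 to 60% of the pool by the labels, and the arrays therefore also hold RNA of other pituitary cells.

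These factors work as a network on a small set of promoters. Nr5a1 encodes steroidogenic factor 1, an orphan nuclear receptor that marks gonadotropes within the pituitary and activates the genes for the LH beta subunit (Lhb), the shared alpha subunit (Cga) and the GnRH receptor (Gnrhr). Nr0b1 encodes DAX-1, a nuclear receptor without a DNA-binding zinc finger domain that represses NR5A1. Foxl2 encodes a forkhead factor that acts with SMAD proteins at the Fshb and follistatin promoters. GATA2 is a zinc finger factor of gonadotropes and thyrotropes, PITX1 is a homeodomain factor present in most anterior pituitary lineages, and ISL1 and LHX3 are LIM homeodomain factors of early pituitary development.

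Letters that these factors are known to bind were looked for in the promoters of their target genes. The 3 windows below hold the 250 bases before the annotated start of Lhb (chr1:105037207-105037456), Cga (chr5:54283090-54283339) and Gnrhr (chr14:22211416-22211665), all on the plus strand of RefSeq build GRCr8, 5' to 3'. They are shown because Lhb, Cga and Gnrhr are target genes measured on the same arrays, and for Lhb, with 2 annotated starts, the first is used. Capitals mark every match, on either strand, to CAAGGNCA (NR5A1), TAATCN (PITX1), GATAA (GATA2), TAATTA (LIM homeodomain factors) or GTAAACA (forkhead factors).
Lhb: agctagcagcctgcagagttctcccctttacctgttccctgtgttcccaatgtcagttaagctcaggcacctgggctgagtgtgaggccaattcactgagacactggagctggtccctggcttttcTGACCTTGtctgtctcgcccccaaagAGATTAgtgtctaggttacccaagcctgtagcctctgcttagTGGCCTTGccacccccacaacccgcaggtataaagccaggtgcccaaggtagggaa
Cga: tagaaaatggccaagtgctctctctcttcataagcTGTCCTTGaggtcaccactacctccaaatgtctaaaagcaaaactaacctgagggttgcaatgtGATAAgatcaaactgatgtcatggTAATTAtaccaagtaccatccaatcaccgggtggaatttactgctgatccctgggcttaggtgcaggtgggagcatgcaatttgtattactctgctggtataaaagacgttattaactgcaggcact
Gnrhr: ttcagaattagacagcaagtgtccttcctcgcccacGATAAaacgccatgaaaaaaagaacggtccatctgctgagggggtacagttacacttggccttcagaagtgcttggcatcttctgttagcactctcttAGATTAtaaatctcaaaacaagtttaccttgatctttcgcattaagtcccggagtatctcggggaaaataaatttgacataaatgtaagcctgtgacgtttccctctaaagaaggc
The Lhb window held the NR5A letters at 2 places, beginning 124 and 56 bases before the start, with a PITX match between them at 98 bases. The Cga window held 1 NR5A match at 215 bases, a GATA match at 151 bases and the LIM homeodomain letters at 127 bases. The Gnrhr window held a GATA match at 214 bases and a PITX match at 116 bases, and no NR5A match in these letters. Of 33469 such windows in the RefSeq table, 5.58% held the NR5A letters, 20.4% the PITX letters, 23.5% the GATA letters, 4.86% the LIM homeodomain letters and 3.21% the forkhead letters. No 2 of these motifs overlapped in the 3 windows, and the letters were chosen with these promoters known, so the matches are a description. Windows were found for 5 of the 7 factors and for 3 of the 4 target genes Lhb, Fshb, Cga and Gnrhr.

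The arrays were not alike in quality. Bacterial spike-in controls had a geometric mean signal of 2264 to 11705 on 5 arrays (GnRH 1 and 2 and vehicle 1, 2 and 5) and of 53482 to 320024 on the other 7. Controls for Bacillus genes, taken here as a measure of background although the sources do not say whether their RNA was added, had medians of 10.3 to 26.2 on the 5 arrays and of 38.0 to 250.5 on the 7. Below, a signal is called above background on an array when it exceeds the 90th percentile of the 27 Bacillus controls there, which was 54.4 to 94.3 on the 5 arrays and 219 to 575 on the 7. Vehicle 3 resembled the other arrays least: its median Spearman correlation to them was 0.376, while every other array had 0.623 to 0.715. The defining gonadotrope genes Lhb, Cga and Fshb (by probe set 1388094_at) were above background on all 12 arrays and Gnrhr on 6. Gh1 of somatotropes, Prl of lactotropes and Tshb of thyrotropes were also above background on all 12.

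None of the 5 tested probe sets passed the test of GnRH against vehicle arrays, limma with Benjamini-Hochberg adjustment over all 18625 probe sets tested. Signals were compared as log2(signal + 16) with the enrichment set in the model, and all 5 adjusted p-values were 0.981. Over all probe sets tested 1 was called, 0.00537%, as higher in GnRH arrays, and 0% were called lower. At an unadjusted limma p under 0.05 the count was also 0 of 5, against 3.45% of all probe sets tested, 1.87% higher and 1.58% lower. That count moved with single arrays. It was 2 of 5, Nr5a1 and Foxl2, without GnRH 3 (against 2.58% of all probe sets) and without GnRH 5 (4.81%). It was 1 of 5 without vehicle 1 (Nr5a1, against 3.6% of all probe sets) or without vehicle 5 (Foxl2, 4.26%). Foxl2 also passed that unadjusted limit with array weights, where 5.18% of all probe sets did, and with median centring (3.29%). Nr5a1 passed it without set I (2.78%). Nr5a1, Foxl2 and Pitx1 had lower mean levels in GnRH arrays, as did 46.4% of all probe sets tested, and Nr0b1 and Gata2 had higher ones. The median log2 difference was -0.47 over the 5 probe sets and 0.04 over all probe sets tested.

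Nr5a1 gave the widest spread of values among the 5 tested probe sets. Its tested probe set had a lowest, median and highest signal of 26.2, 323 and 1391 in GnRH arrays and of 221, 729 and 1412 in vehicle arrays. The ranges of the agents overlapped from 221 to 1391. In set I the signals were 319 and 239 in GnRH arrays, against 221 and 500 in vehicle arrays. In set II they were 484 and 26.2 in GnRH arrays, against 531 and 1129 in vehicle arrays. In set III they were 1391 and 327 in GnRH arrays, against 926 and 1412 in vehicle arrays. Both GnRH arrays lay below both vehicle arrays in set II alone, where 15.9% of all probe sets tested did so, and over all sets GnRH 5 lay among the highest vehicle arrays. The 26.2 of GnRH 4 was below that array's background, and the 531 of vehicle 3 was also not above it; the other 10 signals were.

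The log2 difference of Nr5a1 was -1.15 ± 0.59 (SE, n = 6 per group), a 0.451-fold level with a 95% confidence interval of 0.189 to 1.08 (limma adjusted p = 0.981). The exact two-sided permutation test of agents within sets gave p = 0.130, and the smallest p it can give is 0.00926. Taken set by set (I to III), the log2 difference was -0.26, -2.45 and -0.74. Without GnRH 4 the difference over all sets was -0.54, so that 1 array supplied much of the size. Over the 7 brighter spike-in arrays it was -1.88, and on the 5 with low signal, pooled without a set term, it was -0.73; both selections were made after the data were seen.

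The second Nr5a1 probe set, 1369859_at, did not carry the same pattern. It had a signal of 16.9, 34.3 and 349 (lowest, median and highest) in GnRH arrays and of 16.2, 32.6 and 290.0 in vehicle arrays. It exceeded background on 1 of 12 arrays, GnRH 5, and on none of the vehicle arrays. Its log2 levels and those of the tested probe set had a Pearson correlation of 0.28 over the 12 arrays. No fold is given for it, since its vehicle values are only upper bounds.

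Nr0b1, which encodes the repressor of NR5A1, lay near the filter, with a mean log2 level of 7.59 against a threshold of 7.35. Its lowest, median and highest signals were 72.6, 176 and 474 in GnRH arrays and 82.7, 145 and 319 in vehicle arrays. The groups overlapped in each of the 3 sets, and the signal was above background in 4 of 6 GnRH arrays and in 3 of 6 vehicle arrays. GnRH arrays exceeded vehicle arrays by 0.47 ± 0.55 on the log2 scale (SE, n = 6 per group), without passing (limma adjusted p = 0.981), or 1.38-fold with an interval of 0.613 to 3.11. Its set values from I to III were 0.27, 0.75 and 0.38, higher in each, as were 12.6% of all probe sets tested. With single arrays left out it ran from 0.18, without GnRH 6, to 0.78, without GnRH 5. On the 5 arrays with low spike-in signal it was 0.07.

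**Figure D1:**
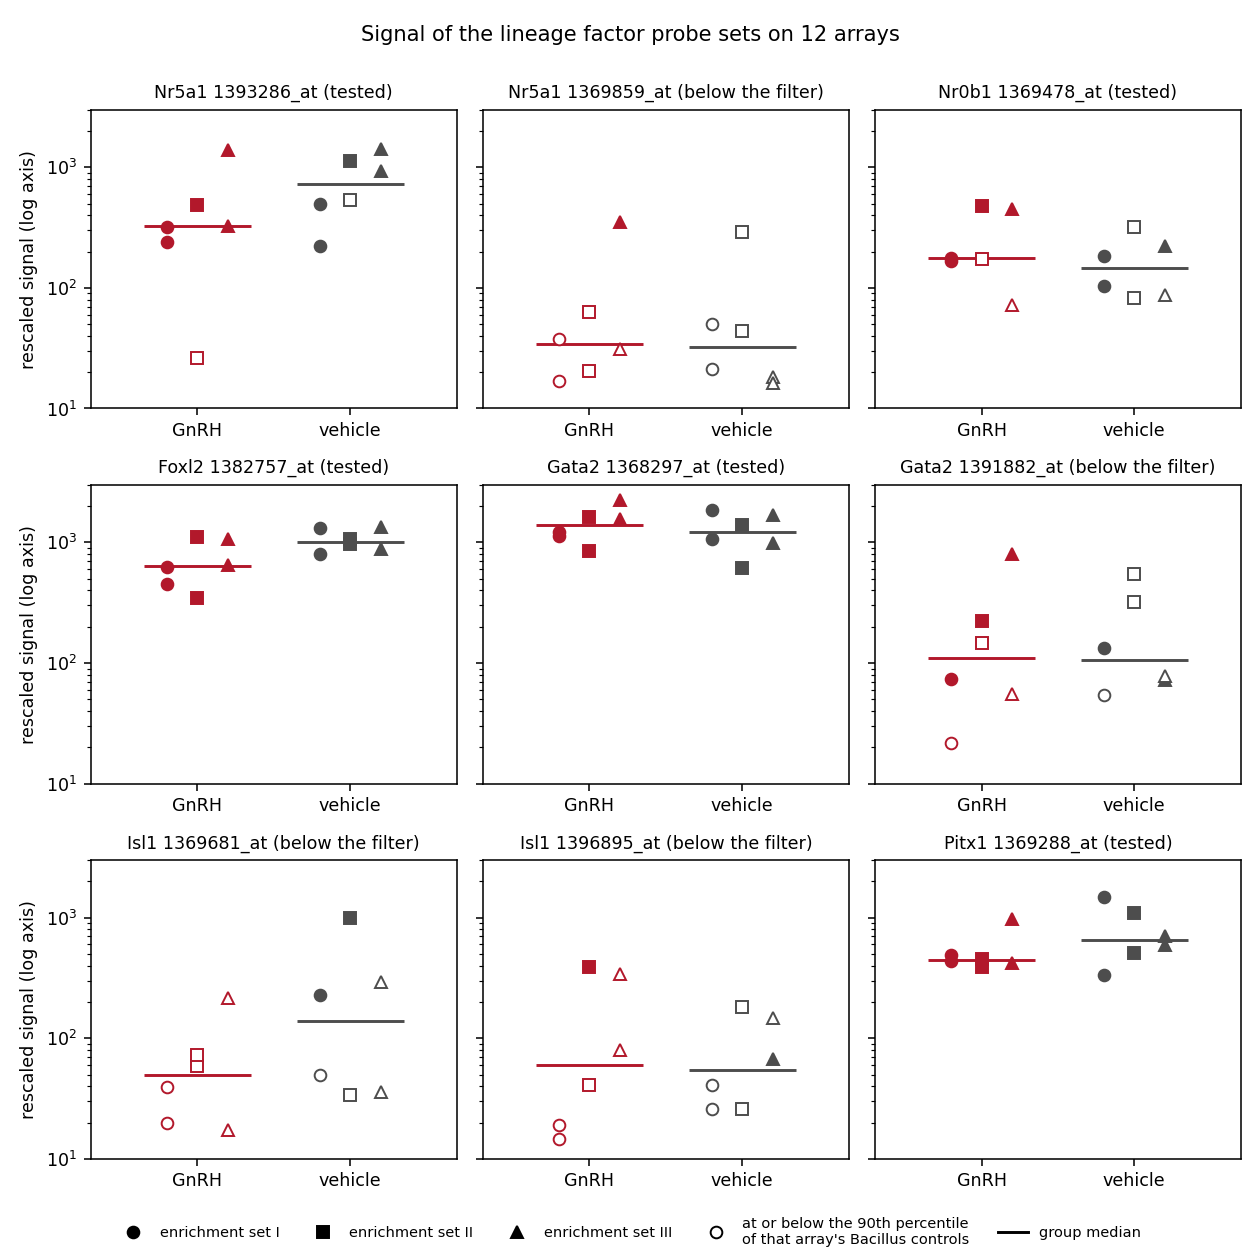
Rescaled signal of each of the 9 probe sets on the 12 arrays (log axis), GnRH arrays left and vehicle arrays right, with marker shape for the enrichment set and a line at the group median. Open markers are signals at or below the array's 90th percentile of Bacillus controls; Foxl2, Gata2 1368297_at and Pitx1 are filled on all 12 arrays, and the groups overlap in every panel.

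Foxl2 was above background on all 12 arrays and had the narrowest vehicle range of the 5 tested probe sets. Its signals were 629 and 455 in GnRH arrays of set I, against 805 and 1325 in vehicle arrays. In set II they were 1099 and 346 in GnRH arrays, against 965 and 1062 in vehicle arrays. In set III they were 1067 and 651 in GnRH arrays, against 882 and 1337 in vehicle arrays. Both GnRH arrays lay below both vehicle arrays in set I, as did 15.6% of all probe sets tested, whereas in sets II and III 1 GnRH array lay within or above the vehicle range. The vehicle arrays spanned 1.66-fold from lowest to highest and the GnRH arrays 3.18-fold.

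Foxl2 differed by -0.67 ± 0.33 on the log2 scale (SE, n = 6 per group), which did not pass (limma adjusted p = 0.981), a 0.630-fold level with an interval of 0.390 to 1.02. The exact within-set permutation test gave p = 0.0648. The set values from I to III were -0.93, -0.70 and -0.37, and the difference was -0.87 to -0.46 with each array left out, the smallest size being without GnRH 4. Over the 7 brighter spike-in arrays it was -0.69, and on the 5 with low signal -0.85. In 28 of 36 GnRH-vehicle pairs the GnRH array was lower, and 0% of pairs were higher by 1.50-fold.

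Pitx1 was also above background on all 12 arrays. Its lowest, median and highest signals were 393, 443 and 983 in GnRH arrays and 338, 647 and 1482 in vehicle arrays. Of the GnRH arrays 5 lay between 393 and 486, and GnRH 5 alone was higher. The vehicle arrays of set I held both extremes, 338 and 1482. Pitx1 differed by -0.47 ± 0.39 on the log2 scale (SE, n = 6 per group; not passing, limma adjusted p = 0.981), or 0.721-fold with an interval of 0.404 to 1.29. The set values were -0.61 (I), -0.80 (II) and -0.0023 (III), the last near 0. Both GnRH arrays lay below both vehicle arrays in set II, where 15.9% of all probe sets tested did so. Without vehicle 2 the difference was -0.19.

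Nr5a1, Foxl2 and Pitx1 were lower in the mean of each of the 3 sets, 3 of the 5 tested probe sets, and 11.4% of all probe sets tested were. In the case of Pitx1 the set III value does not part from 0 at the spread of its 4 arrays. No tested probe set had all GnRH arrays on 1 side of all vehicle arrays, as 0.107% of all probe sets tested had.

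**Figure D2:**
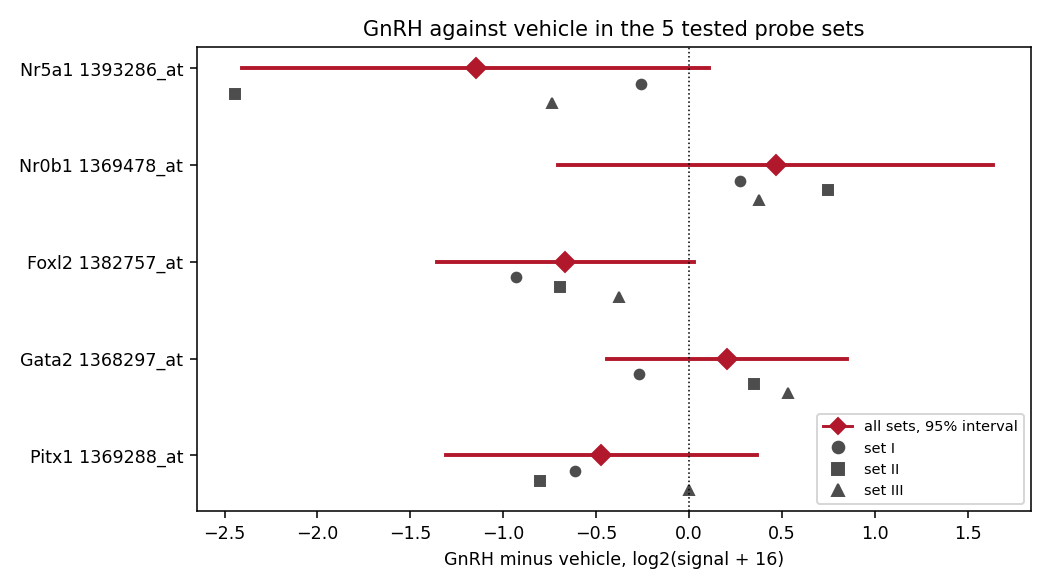
GnRH minus vehicle difference on the log2(signal + 16) scale for the 5 tested probe sets, as the estimate over all sets with its 95% confidence interval (diamond and line) and as the difference within each set. Every interval includes 0, and the 3 set values of Foxl2 lie closest together among the 3 genes with lower GnRH means.

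**Figure D3:**
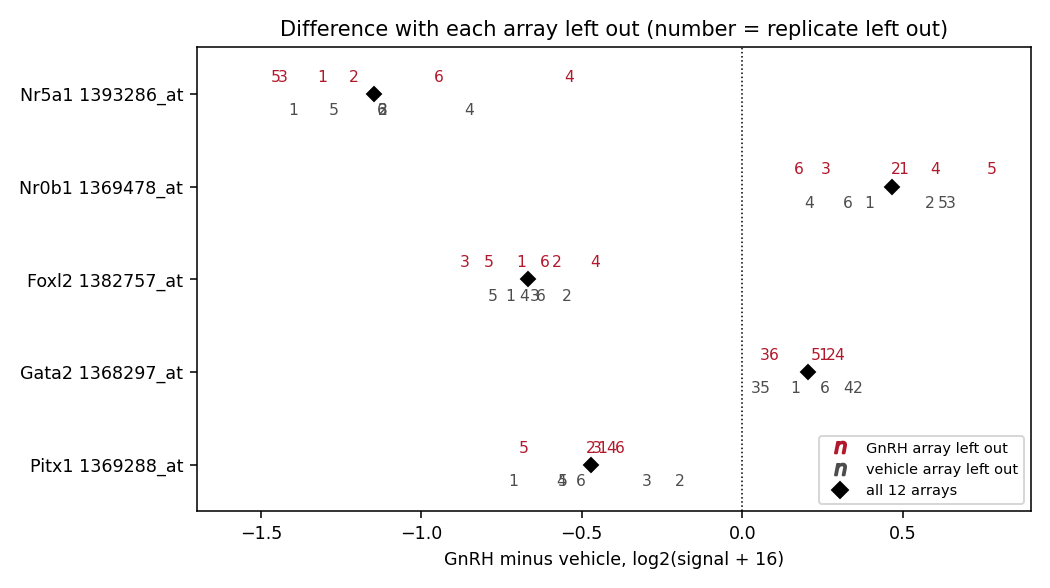
GnRH minus vehicle difference on the log2(signal + 16) scale of the same probe sets with each array left out, the number naming the replicate left out. Leaving out GnRH 4 moves Nr5a1 from -1.15 to -0.54, and no single omission changes the sign of any of the 5.

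Gata2 had the smallest difference of the 5 tested probe sets by its bright probe set, and its other probe set was dim. Probe set 1368297_at gave 846, 1386 and 2244 (lowest, median and highest) in GnRH arrays and 609, 1228 and 1853 in vehicle arrays, above background on all 12. GnRH arrays exceeded vehicle arrays by 0.20 ± 0.30 on the log2 scale (SE, n = 6 per group; limma adjusted p = 0.981), or 1.15-fold with an interval of 0.737 to 1.80. The set values were -0.27 (I), 0.35 (II) and 0.53 (III). Without vehicle 3 it was 0.04, and without both vehicle 3 and vehicle 5 it was -0.14, so the sign rests on those arrays. The second probe set, 1391882_at, had 21.7, 110.0 and 795 in GnRH arrays and 54.2, 105 and 547 in vehicle arrays. It was above background on 5 of 12 arrays and its Pearson correlation with the first over the 12 arrays was -0.0025.

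Isl1 was measured close to background by both of its probe sets. Probe set 1369681_at had signals of 17.5, 49.4 and 217 in GnRH arrays and of 33.8, 139.8 and 986 in vehicle arrays (lowest, median and highest). It was above background on none of the 6 GnRH arrays and on 2 vehicle arrays, vehicle 2 (230) and vehicle 3 (986). Probe set 1396895_at had 14.5, 60.4 and 393 in GnRH arrays and 26.0, 54.1 and 183 in vehicle arrays, above background on 1 array of each group. The arrays above background were different for the 2 probe sets, whose Pearson correlation over the 12 arrays was 0.03. At this signal over background a difference in Isl1 could not be judged, and its probe sets were not among those tested.

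The 4 dim probe sets had larger differences between the spike-in classes of arrays than the 5 tested ones. Their mean log2 level was 0.96 (Nr5a1 1369859_at), 1.58 (Gata2 1391882_at), 0.95 (Isl1 1369681_at) and 1.60 (Isl1 1396895_at) higher over the 7 brighter spike-in arrays, compared with the 5 dimmer ones. For the tested probe sets this difference was 0.06 for Pitx1 to 0.36 for Nr5a1, and its median over all probe sets tested was -0.01. The Bacillus controls were brighter on the same 7 arrays. The median signal of all probe sets was also higher there, at 244 to 341, than on the 5, at 181 to 199. No value is given here for the other probe sets below the filter. The part of background in the class differences was not tested.

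The study's own criterion, stated for increases, asks for a fold of at least 1.50 and for at least 50% of GnRH-vehicle comparisons to agree. GCOS change calls were not recomputed, and a comparison was counted here when the pair differed by at least 1.50-fold. The counts therefore stand for an approximation of that criterion. Applied to signal + 16, 0 of the 9 probe sets met it as higher, where 10.9% of all 31042 probe sets did. Turned round for decreases it was met by 3 of the 9, where 9.1% of all probe sets met it. These were Nr5a1 1393286_at (66.7% of pairs lower by 1.50-fold), Foxl2 (52.8%) and Isl1 1369681_at (52.8%). For Nr0b1, 52.8% of pairs were higher by 1.50-fold, but its mean ratio of 1.38 was below the fold limit. The criterion carries no error rate, and the Isl1 ratio rests on GnRH signals that were not above background.

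Levels by preparation were compared next. The 4 arrays of set I had low spike-in signal and background, those of set II high, and set III held 1 low and 3 high arrays, so preparation and array class cannot be told apart between sets I and II. Averaged over agents, Nr5a1 was highest in set III with a mean log2 level of 9.81, then set II with 8.41 and set I with 8.32. Set III exceeded set I by 1.49 ± 0.73 (SE; limma adjusted p = 0.295), and sets II and I differed by 0.08 ± 0.73. In vehicle arrays alone the Nr5a1 means ran 8.45, 9.63 and 10.18 over the sets in order. Foxl2 vehicle means were 10.04, 10.01 and 10.11, and Pitx1 vehicle means 9.51, 9.57 and 9.37, so neither ordered the preparations beyond their spread. Gata2 was 10.35, 10.04 and 10.62 over both agents, and Nr0b1 7.42, 7.88 and 7.48. By limma's F test 0 of the 5 differed between sets, at adjusted p from 0.263 (Nr5a1) to 0.943 (Pitx1), where 6.02% of all probe sets did. At an unadjusted p under 0.05 the counts were 0 of 5 against 27.8%. That count moved with single arrays: without GnRH 4 the lowest p of the 5 by this limma F test was 0.0271. The share of all probe sets under 0.05 was not computed in that fit, so this p has no share beside it. The GnRH response did not differ detectably between sets for any of the 5 (limma F test, adjusted p from 0.956 to 0.999). Over all probe sets 0% were called, and at an unadjusted p under 0.05 it was 0 of 5 against 5.36%. Without GnRH 3 the lowest p of the 5 by this limma F test was 0.0181, and there too the share of all probe sets was not computed. Within any set alone 0 of the 5 were called by limma, as were 0% of all probe sets. At an unadjusted p under 0.05, Foxl2 passed in set I, where 3.7% of all probe sets did. No other factor passed in any set, against 4.34% of all probe sets in set II and 2.65% in set III. Without vehicle 1, set I held 2 GnRH arrays and vehicle 2 alone, which is then assumed to vary as the GnRH pair does. In that fit the log2 difference was -1.28 for Foxl2 and -1.65 for Pitx1, and no calls are read from it. Vehicle 2 had the highest Pitx1 signal of the 12 arrays. With vehicle 2 left out instead, the differences were -0.58 for Foxl2 and 0.43 for Pitx1.

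Nr5a1 and Foxl2 moved together from array to array. After subtraction of each set's mean, their log2 levels had a Pearson correlation of 0.83 and a Spearman correlation of 0.81 over the 12 arrays, and 0.762% of all probe sets tested correlated as highly with Nr5a1. After subtraction of the means of each agent within each set, the Pearson correlation was 0.92. Each agent has 2 arrays per set, whose deviations then mirror each other, so these points are not independent. Without GnRH 4, the lowest array for both genes, the Pearson correlation within sets was 0.63. No value without GnRH 4 was computed for the 0.92. Pitx1 had a Pearson correlation of 0.63 with Foxl2 and of 0.50 with Nr5a1, and a Spearman correlation of 0.81 with Nr5a1. Nr0b1 had -0.29 with Nr5a1 and -0.13 with Foxl2, and Gata2 had 0.20 and 0.29. GnRH 4, where Nr5a1 was below background, moved these values too. Without it Nr0b1 had -0.78 with Nr5a1 and -0.31 with Foxl2, Gata2 had 0.03 and 0.19, and Pitx1 had 0.54 and 0.65 with the same genes. These points share the array, and with it RNA amount, amplification and cell makeup, and in such cultures fewer cells of a type and less RNA per cell cannot be told apart.

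**Figure D4:**
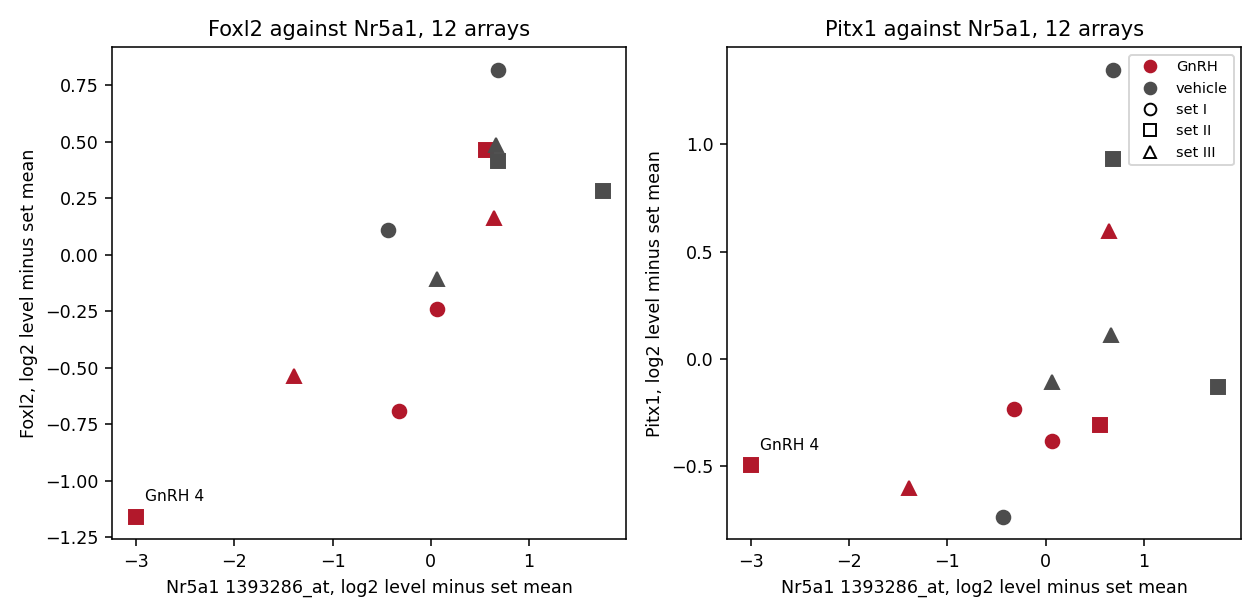
Log2 level of Foxl2 (left) and Pitx1 (right) against Nr5a1 1393286_at on the 12 arrays, each minus the mean of its enrichment set, coloured by agent and shaped by set. GnRH 4 is lowest for Nr5a1 and Foxl2, and the Pearson correlations are 0.83 for Foxl2 and 0.50 for Pitx1.

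By the same within-set correlation, the genes most like Nr5a1 among 13654 probe sets with 1 symbol were Ints4 (0.97), Car11 (0.97) and Dnaja3 (0.94). For Foxl2 they were Mrpl27 (0.95), Art1 (0.93) and Lrp6 (0.92), and for Pitx1 Coq8b (0.97), Isyna1 (0.97) and Ddx23 (0.94). For Gata2 they were Itih1 (0.97), Sqstm1 (0.94) and Mrps7 (0.94), and for Nr0b1 Tgm2 (0.93), Il10rb (0.93) and Sord (0.92). These are the highest of all those compared, over 12 arrays.

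The target genes of the network were higher in the mean of GnRH arrays in 4 of 4 cases without passing the test. Of all probe sets tested, 46.4% were lower by any amount and the rest were higher. Lhb, whose promoter carries both NR5A matches, had 21368, 104747 and 152379 (lowest, median and highest) in GnRH arrays and 12563, 38234 and 152897 in vehicle arrays, a log2 difference of 0.74 ± 0.55 (SE; limma adjusted p = 0.981). Its mean log2 level was 2.31 higher over the 7 brighter spike-in arrays, and the value for Nr5a1 was 0.36. Among those 7, Lhb was lowest on vehicle 3, which had the highest spike-in signal, and highest on vehicle 6, which had the lowest. Cga had 47726, 293907 and 371592 in GnRH arrays and 17041, 130933 and 348827 in vehicle arrays, differing by 0.89 ± 0.67 on the log2 scale (SE; limma adjusted p = 0.981). Its set values were 0.13, 0.15 and 2.40, with vehicle 5, a low spike-in array, in the last, and its difference between the spike-in classes was 2.76. The 2 tested Gnrhr probe sets differed from each other. Probe set 1387465_a_at ran the other way between the classes at -1.73, with signals of 249 to 469 on the 5 arrays and 40.3 to 230.0 on the 7. It was above background on 3 arrays of each group and had a log2 difference of 0.18 ± 0.53 (SE; limma adjusted p = 0.997). Probe set 1369118_a_at had 74.8, 233 and 337 in GnRH arrays and 36.4, 102 and 258 in vehicle arrays, above background on 4 GnRH and 2 vehicle arrays, and 0.34 between the classes. Its log2 difference was 0.75 ± 0.53 (SE; limma adjusted p = 0.981), with set values of 1.65, -0.16 and 0.77. Fshb 1388094_at, a target of FOXL2 with SMAD proteins, had 413, 585 and 1062 in GnRH arrays and 393, 577 and 796 in vehicle arrays, with a log2 difference of 0.13 ± 0.29 (SE; limma adjusted p = 0.993). A dimmer Fshb probe set, 1388289_s_at, lay below the filter and was not among those tested. It had 44.7, 148 and 329 in GnRH arrays and 18.3, 94.1 and 142 in vehicle arrays, a log2 difference of 0.93. Its signal was above background on 4 GnRH and 3 vehicle arrays.

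**Figure D5:**
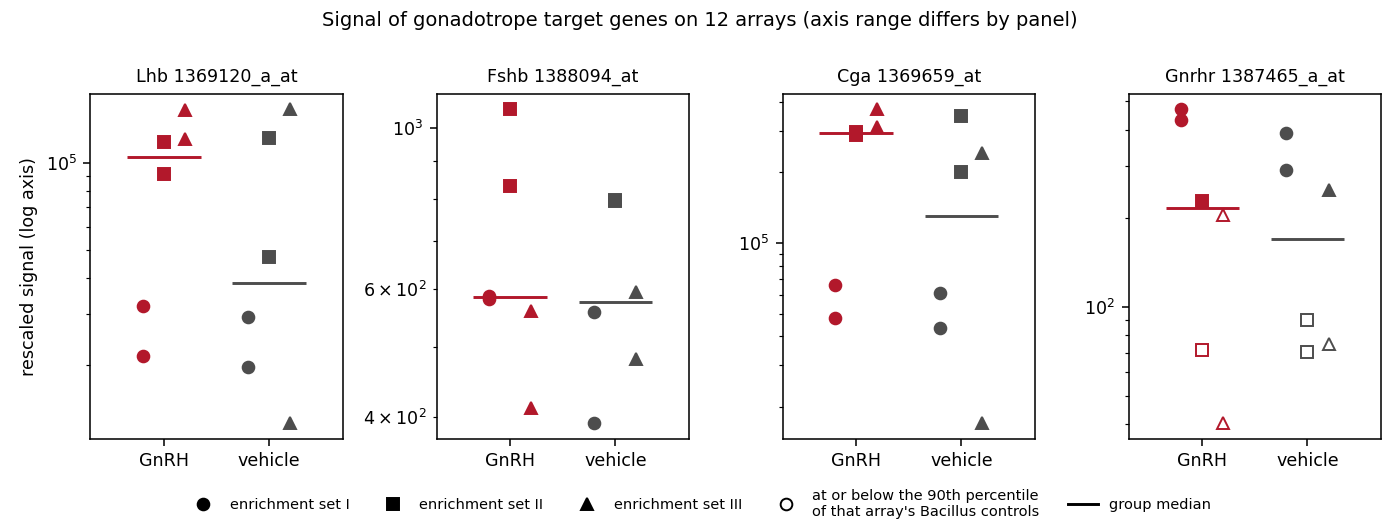
Rescaled signal of Lhb, Fshb, Cga and Gnrhr (1 probe set each, 1387465_a_at for Gnrhr) on the 12 arrays (log axes that differ by panel), GnRH left and vehicle right, shaped by enrichment set, with lines at the group medians. Lhb and Cga are lowest on vehicle 5 and on the arrays of set I, whereas Gnrhr 1387465_a_at is open, at or below background, on 6 of the 7 brighter spike-in arrays.

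Of the wider list of target genes, 19 of 24 were tested. In GnRH arrays 11 were higher and 8 lower, where 46.4% of all probe sets tested were lower. The adjusted limma test was passed by 0, and the median log2 difference was 0.07. The smallest p-values belonged to Nr4a1, Scg2 and Inhbb. Inhbb, the inhibin beta B subunit gene, differed by -1.02 ± 0.55 (log2, SE), with set values of 0.21, -3.18 and -0.10. Scg2, a granin of secretory granules, differed by 0.68 ± 0.33.

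Partners and cofactors of the factors had 24 of 31 genes tested. In GnRH arrays 17 were higher and 7 lower, where 46.4% of all probe sets tested were lower. Of these genes 0 passed the adjusted limma test, and their median log2 difference was 0.17. At an unadjusted p under 0.05, 2 were higher, where 1.87% of all probe sets tested were. These were the orphan receptor gene Nr4a1 (log2 1.16 ± 0.41, SE) and Egr1 (0.77 ± 0.29), whose product acts with NR5A1 and PITX1 on the Lhb promoter. Zfpm1, which encodes the GATA cofactor FOG-1, had the third smallest p at 0.94 ± 0.50. Its median signal was 729 in GnRH arrays and 198 in vehicle arrays, and its set values were 1.07, 0.41 and 1.33. Its adjusted limma p was 0.981, and 1 vehicle array reached 1797, above every GnRH array.

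Other lineage transcription factors of the pituitary had 13 of 34 genes tested. In GnRH arrays 10 were higher and 3 lower, where 46.4% of all probe sets tested were lower. Of the 13 genes 0 passed the adjusted limma test, and their median log2 difference was 0.21. The smallest p-values belonged to Foxo1 (0.80 ± 0.51), the retinoid receptor gene Rxrg (-0.67 ± 0.52) and the corticotrope factor gene Tbx19 (0.64 ± 0.51). The Foxo1 set values were -0.44, 0.39 and 2.44, so its mean came mostly from set III. Over the list the differences ran from -0.67 to 0.80, with 0.24 for Pou1f1, the factor of somatotropes, lactotropes and thyrotropes.

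No marker of another cell type passed the adjusted test, and the largest difference among them was that of Pomc, the corticotrope and melanotrope prohormone gene. Pomc had a median of 67.0 in GnRH arrays and 569 in vehicle arrays, above background on 6 of 12 arrays, and differed by -1.77 ± 0.50 on the log2 scale (SE; limma adjusted p = 0.981), with set values of -0.55, -2.35 and -2.40. The other markers of that list, Pcsk2 and Tbx19, differed by 0.56 and 0.64. The mean log2 level of 4 gonadotrope markers (Lhb, Fshb, Cga and Gnrhr) ran from 12.0 to 13.1 in GnRH arrays and from 11.2 to 12.8 in vehicle arrays. That of 3 thyrotrope markers (Tshb, Trhr and Dio2), of a cell type that also expresses Foxl2 and Gata2, ran from 8.04 to 10.5 in GnRH arrays and from 9.07 to 10.7 in vehicle arrays. Trhr and Dio2 differed by -0.76 and -0.64 and Tshb by 0.21. The folliculostellate and stem cell list had 3 of 5 markers higher and 2 lower, from -0.84 (S100b) to 0.84 (Gfap). The somatotrope and lactotrope markers were higher in 3 of 3 cases, from 0.27 to 0.67, the endothelial ones in 2 of 3 and the fibroblast and pericyte ones in 1 of 3. Beside these counts, 46.4% of all probe sets tested were lower in GnRH arrays and the rest were higher. Among leukocyte markers 1 of 3 tested was higher, and the list's mean log2 level ran from 7.48 to 8.42 in GnRH arrays and from 7.53 to 9.47 in vehicle arrays. No erythrocyte marker passed the filter. The part of these cells in the values of Nr5a1, Foxl2 and Pitx1 was not tested.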

How the data were processed

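RNA from 12 samples was measured on Affymetrix Rat 230 arrays, 1 array each. Per the labels' protocols it was amplified in a pair of T7 rounds, which favours 3' ends. The deposited values are probe set signal intensity on a linear scale, which the authors computed with GCOS, named in the series' design text and also in the submitters' processing notes. No GCOS version or setting was stated there. The deposited trimmed means lay between 497 and 499, so the authors had scaled the arrays. Each array was rescaled here to a trimmed mean of 500 (2% trimmed at each end), 16 was added and log2 taken, so folds understate changes of dim genes. Probe sets with a mean at or above the 40th percentile, 18625 of 31042, were tested. Symbols came from the platform annotation: 20826 probe sets had 1, 436 several and 9780 none. Tests used limma 3.58.1 in R 4.3.3 with enrichment set and agent in the model, an intensity trend and Benjamini-Hochberg adjustment at 0.05, and were tested on simulated data. Within each set limma was run on 4 arrays. F tests compared sets and responses.

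Factors and gene lists were chosen with earlier results of these data known. Named were all members, Lhb, Fshb, Cga and Gnrhr, up to 3 genes of smallest p per list and the 3 most correlated genes per member. Replicate numbers were not taken to pair samples in the main model. Deviations of same-numbered arrays correlated at -0.14 to -0.03. Both replicates of a set necessarily share 1 value there, so this does not settle the pairing. The sample titles number the arrays as biological replicates. The labels do not say what was separate between arrays of 1 preparation, so p-values may measure spread within preparations only. The highest Spearman correlation of any pair of arrays was 0.94. Alternatives changed the pseudocount, filter, normalization, model, variance trend, array weights and arrays used. The number of arrays limits the precision.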

Additional observations from a re-analysis of the deposited data

Results flagged for a closer look

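In 3 of 18 groups of 6 arrays 1 array lay far from the other 5 by Dixon's test on the log2 scale, and chance gives about 1 in 20 such groups. Pitx1 was 983 in GnRH 5, above the 5 other GnRH arrays. Nr5a1 1369859_at was 349 in GnRH 5 and 290.0 in vehicle 4, while the other arrays of either group lay at 62.9 or below. The tested Nr5a1 probe set was also high on these 2 arrays, at 1391 and 1129. It was highest on vehicle 6, at 1412, where 1369859_at had its lowest signal, 16.2. The 290.0 of vehicle 4 was not above that array's background.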

How the results depend on the processing

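The count of 0 called among the 5 tested probe sets held under all 16 alternatives to the model, scaling or arrays and with each of the 12 arrays left out. In both F tests it stayed 0 under 2 alternatives and with each array left out. Within sets it stayed 0 under 2 alternatives. In set I it did not hold without vehicle 1. A fit within a set with 1 array left out leaves 1 array in a group, so no counts are read from such fits. For GnRH against vehicle over all sets, the count at an unadjusted p under 0.05 was 0 to 2 with single arrays left out and 0 to 1 otherwise. The share of all probe sets was 2.37% to 4.81% with single arrays left out and 1.79% to 5.18% otherwise. The log2 difference of Nr5a1 ran from -1.88 to -0.50 over the alternatives and from -1.45 to -0.54 with single arrays left out, that of Foxl2 from -0.85 to -0.54 and from -0.87 to -0.46, and that of Pitx1 from -0.71 to -0.31 and from -0.71 to -0.19. Nr0b1 ran from 0.07 to 0.86 and was below the filter at the 60th percentile. Gata2 turned to -0.11 with array weights, to -0.10 on the 5 arrays with low spike-in signal and to -0.14 without vehicle 3 and vehicle 5; the cause was not tested. Over all probe sets the 1 call became 2 with array weights and 0 with a pseudocount of 1, the filter at the 60th percentile, quantile normalization, median centring, no set term, no intensity trend, any set left out, or the 7 or 5 arrays alone. With single arrays left out it was 0 to 1, and 1 without vehicle 3. With the replicate number as a block the Nr5a1 difference was -1.15 and that of Foxl2 -0.67, with 0 calls among the 5 and 0 over all probe sets. The study's criterion for decreases was met by 3 probe sets also without a pseudocount, and that for increases by 0. Background signal limits Isl1, Nr0b1 and the second probe sets of Nr5a1 and Gata2. The spike-in selections, the omission of vehicle 3 with vehicle 5 and the within-set alternatives were chosen after the data were seen.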
